A study of Mus musculus with 16 samples.

Results

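Oxidative phosphorylation genes were followed in group 2 innate lymphoid cells (ILC2s), tissue lymphocytes that answer the epithelial alarm cytokine IL-33 with type 2 cytokines. The genes were all those on the arrays whose symbol starts with Nduf (complex I, but for the complex IV subunit Ndufa4 and its relative Ndufa4l2), Uqcr (complex III), Cox4 to Cox8 (complex IV) or Atp5 (complex V), together with Sdha, Sdhb, Sdhc and Sdhd (complex II). The rule gave 89 genes on 98 probe sets, of 22180 genes on the arrays, and for the 9 genes with 2 probe sets the one with the higher mean over all arrays was used. They comprised 6 core and 26 supernumerary complex I genes, 8 complex I assembly factors, 4 complex II, 7 complex III, 19 complex IV and 17 complex V genes, and 2 pseudogenes. All but 3 of them (Atp5c1-ps, Cox7b2 and Cox8c) had a group mean above the 40th percentile of all values, a log2 signal of 3.584.

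The cells came from C57BL/6J mice. Lung ILC2s were taken from naive mice that had no IL-33 (n = 2 arrays) and from mice 4 days (n = 3), 2 weeks (n = 3) and 4 months (n = 2) after the start of intranasal IL-33, and mediastinal lymph node (mLN) ILC2s from mice 4 days (n = 3) and 2 weeks (n = 3) after it. The labels call the replicates of a group biological, and the sources used here do not give the age of the mice, the IL-33 dose, the sort gate or whether animals were pooled. All values are log2 signals, and because RMA gives every array the same distribution of probe signals, a value is relative to the other genes of its array.

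Oxidative phosphorylation is the last stage of respiration. Complexes I and II pass electrons from NADH and succinate to ubiquinone, complex III passes them on to cytochrome c and complex IV to oxygen, and the proton gradient built on the way drives ATP synthase, complex V. Most subunits are encoded in the nucleus and a few in mitochondrial DNA, and lymphocytes are known to raise mitochondrial capacity when they are activated.

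The ILC2 markers averaged 8.94 to 9.61 over the 16 arrays. Il17rb, one of them, had 7.91 and 7.51 on the naive arrays, against 8.48 to 10.50 on the others. T cell markers were also high on the naive arrays (below), so the mean of the ILC2 markers does not settle the cell type there. The arrays differed in other ways. The signals of the 4-month arrays had an interquartile range of 2.05 and 2.47 and those of the naive arrays 2.39 and 2.45, against 2.85 to 3.07 on the rest. The SD between arrays of a group, over all genes, was 0.452 in naive and 0.417 in 4-month lung, against 0.241 to 0.280 in the other groups. The p-values of the model used throughout, limma with 1 spread shared by all groups, are therefore too small wherever naive or 4-month lung enters, and counts of genes that passed in such a comparison are followed by those from limma with array weights, which gives the naive and 4-month arrays less weight. In those comparisons a gene is said to have risen or fallen only where both passed an adjusted p of 0.05. The T cell markers averaged 7.15 and 7.12 on the naive arrays, against 5.44 to 5.89 on all others, and the 11 macrophage markers averaged 6.47 and 6.48 on day 4 lung replicates 1 and 2 and 5.69 on week 2 lung replicate 3, against 3.39 to 4.97 on the other arrays. In bulk RNA, fewer cells of a type and less RNA per cell cannot be told apart.

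Across the 6 groups the mean of the 89 genes was 6.86 on both naive arrays, 7.52, 7.41 and 7.20 on the day 4 lung arrays, 7.02, 7.09 and 6.996 at week 2, and 6.51 and 6.81 at 4 months. In the mLN it was 7.46, 7.54 and 7.22 at day 4 and 7.40, 7.48 and 7.10 at week 2. By group mean, day 4 lung and both mLN groups were thus highest, week 2 lung lay between them and naive lung, and 4-month lung was lowest. The third week 2 mLN array lay close to the week 2 lung arrays, and the 4-month replicate 2 close to naive lung.

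**Figure D1:**
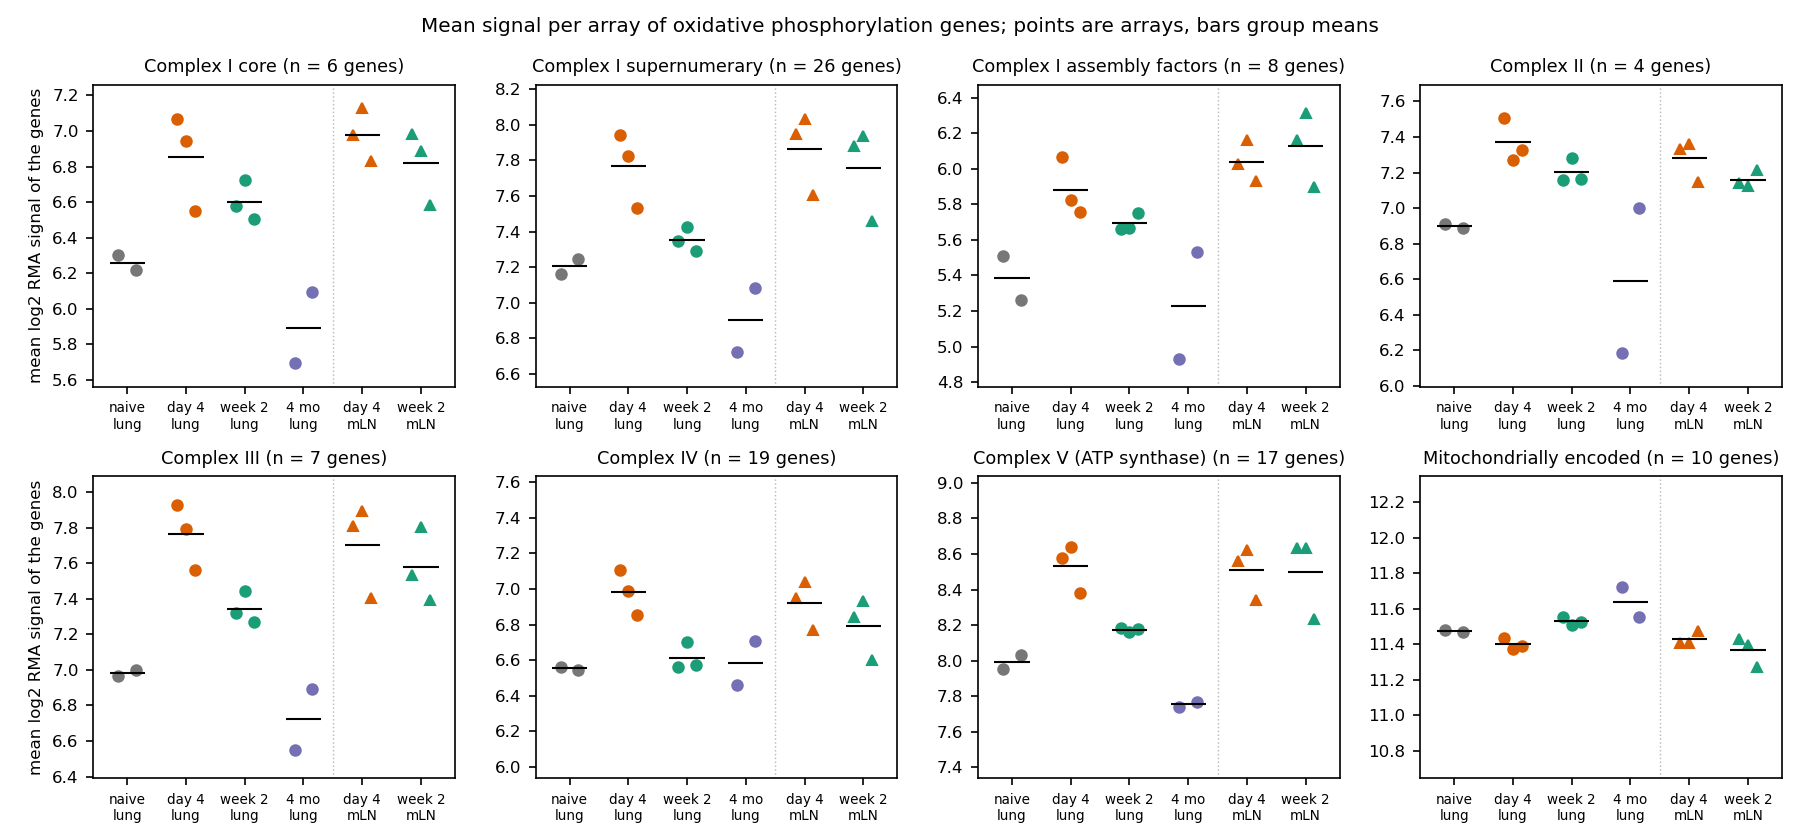
Mean log2 signal of the genes of each complex (y) on each array, by group (x), with points for arrays and bars for group means; the vertical axes span the same range. The nuclear-encoded complexes were high at day 4 in the lung and in the mLN, also at week 2 in the mLN apart from complex II, and the mitochondrially encoded subunits differed little between groups.

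Day 4 lung was compared with naive lung to ask what the acute response does to respiratory chain transcripts. At day 4, 29 of the 89 genes passed as higher than in naive lung and 0 as lower, where 10.8% of all genes passed as higher and 5.73% as lower (shared spread). With array weights 17 of them passed, all higher, where 5.91% of all genes did. The median difference was 0.55 over the 89 genes and -0.06 over all genes, and 76 of the 89 differences were positive. When quantile normalization was repeated on the deposited values, the median was 0.33 and 15 genes passed, and the share of all genes that passed there is not given. The day 4 and naive arrays did not overlap for 54 genes that were higher (60.7%, against 22% of all genes) and for 4 that were lower (against 22.5%).

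Cox5a, a nuclear-encoded structural subunit of cytochrome c oxidase, had 10.66, 10.34 and 9.79 on the day 4 lung arrays, against 8.77 and 8.63 on the naive arrays. The groups did not overlap, and replicate 3 was the lowest of the day 4 arrays. Cox5a rose by 1.56 ± 0.33 (SE, limma adjusted p = 0.00407). Ndufa12, a supernumerary complex I subunit, had 9.36, 9.27 and 8.85 at day 4, against 7.05 and 8.14 in naive lung. The 2 naive arrays differed from each other by more than the 3 day 4 arrays did, and the rise was 1.56 ± 0.27 (adjusted p = 0.00102). Atp5g3, one of 3 genes for the c subunit that forms the rotor ring of ATP synthase, had 8.86, 8.97 and 8.59 at day 4, against 7.49 and 7.34 in naive lung. Its arrays agreed closely within both groups, and the rise was 1.39 ± 0.21 (adjusted p = 0.000407). Atp5d, the delta subunit of the ATP synthase central stalk, had 10.39, 10.30 and 9.85 at day 4, against 8.65 and 9.21 in naive lung. It rose by 1.25 ± 0.22 (adjusted p = 0.00128).

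By complex, the share of genes that passed under the shared spread was highest in complex III, where 4 of 7 did (median difference 0.91), and all 4 also passed with array weights. These were Uqcrfs1, the Rieske iron-sulfur protein, at 0.96, Uqcrb at 1.00, Uqcrh, the hinge protein, at 1.13, and the core protein Uqcrc2 at 0.91. Uqcrc1, the other core protein, differed by 0.36 and did not pass. In complex V 8 of 17 passed, and 5 with array weights: Atp5g3, Atp5d, Atp5j at 1.03, Atp5pb at 0.96 and the F1 alpha subunit Atp5a1 at 0.92. Its partner Atp5b, the catalytic beta subunit, differed by 0.37 (adjusted p = 0.338).

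In complex I, 1 of 6 core genes (Ndufv2, 0.91), 7 of 26 supernumerary genes and 3 of 8 assembly factors passed, and with array weights 1, 3 and 1. The supernumerary genes that rose were Ndufa12, Ndufb7 (1.20) and Ndufb10 (1.01), and the assembly factor was Ndufaf7 (1.26), a methyltransferase that acts early in complex I assembly. Ndufb3, also supernumerary, had 6.29, 6.16 and 5.59 at day 4, against 5.34 and 3.71 in naive lung. It passed under the shared spread (1.48 ± 0.46, adjusted p = 0.0369) and not with array weights (adjusted p = 0.0765), and its difference was 0.67 to 2.30 when 1 array was left out. The core subunits Ndufs1 (0.57, adjusted p = 0.0824) and Ndufv1 (0.32) did not pass. In complex IV 5 of 19 passed and 3 with array weights, Cox5a, Cox4i1 (0.97 ± 0.25, adjusted p = 0.0146) and Cox6b2 (1.64 ± 0.42, adjusted p = 0.0141). Cox4i1 had 10.21, 10.22 and 9.86 at day 4, against 8.68 and 9.59 in naive lung. Its naive arrays lay far apart, and leaving out 1 array at a time gave differences of 0.51 to 1.42, with 2 of 5 passing. In complex II only the membrane anchor Sdhc passed under the shared spread (0.98 ± 0.27, adjusted p = 0.0225) and no gene with array weights, and Sdha (0.58), Sdhb (0.30) and Sdhd (0.03) did not pass.

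**Figure D2:**
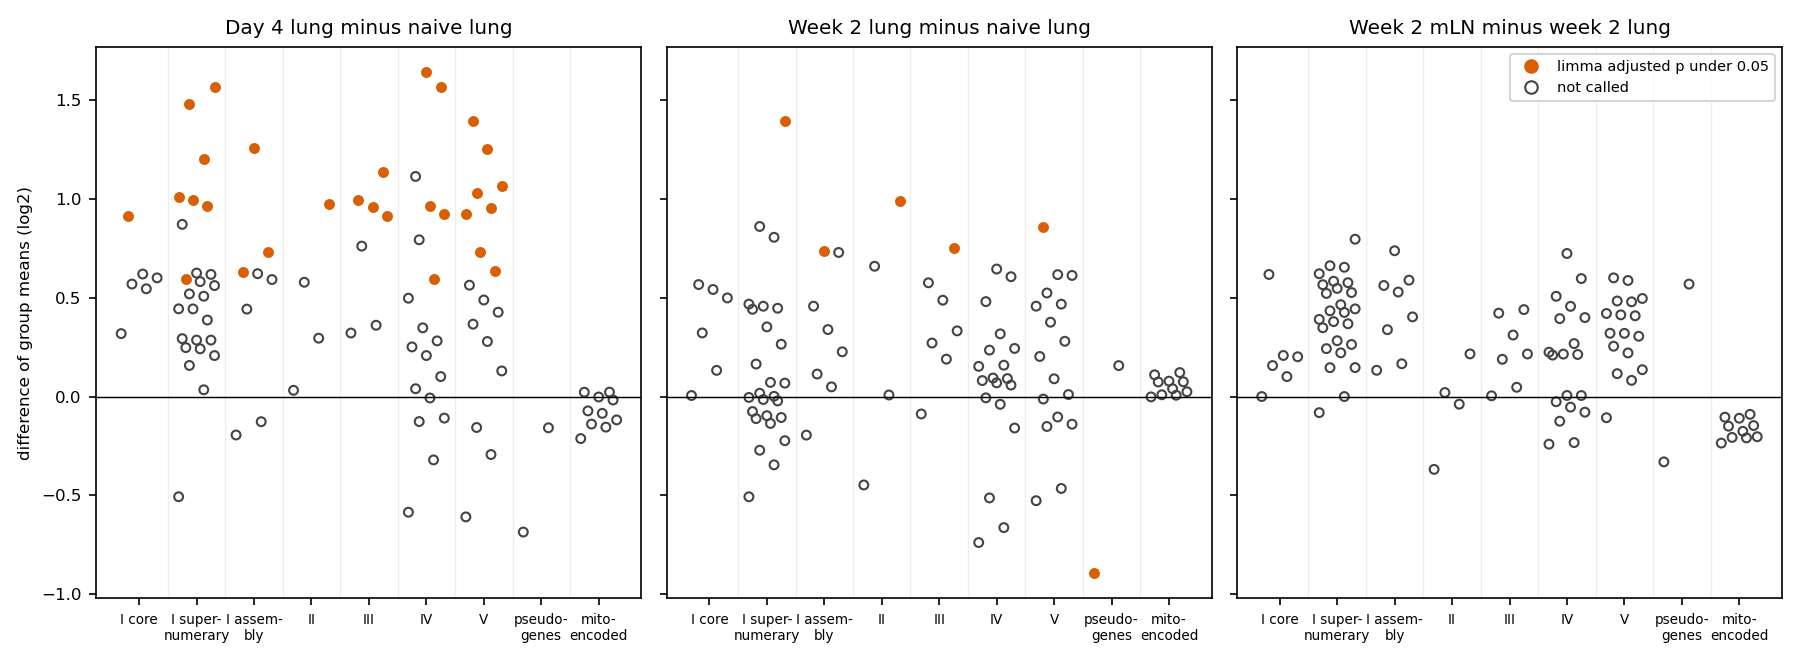
Difference in log2 signal for each of the 89 genes, by complex, for day 4 lung minus naive lung, week 2 lung minus naive lung, and week 2 mLN minus week 2 lung. The last column of each panel holds the 10 mitochondrially encoded subunits, which are not among the 89. Filled orange points passed an adjusted p of 0.05 under the shared spread: 29, 6 and 0 of the 89 genes.

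Isoforms of one subunit are given side by side, and differences between them were not tested. Cox6b2, an isoform known best from testis, had 6.51, 6.32 and 5.95 at day 4, against 4.39 and 4.85 in naive lung, and its broadly expressed counterpart Cox6b1 differed by 0.79 (adjusted p = 0.096). Among the c subunit genes Atp5g3 rose, Atp5g2 differed by 0.56 (adjusted p = 0.125) and Atp5g1 by -0.61 (adjusted p = 0.241). Atp5g1 had 2.69, 4.38 and 4.39 at day 4, against 4.41 and 4.44 in naive lung, so 1 low array set its mean. Cox4i1 rose, and the hypoxia-linked isoform Cox4i2 differed by 0.04. Cox7a1, the heart and muscle isoform, differed by 1.11 (adjusted p = 0.0703), Cox7a2 by 0.50 and Cox7a2l, a supercomplex factor, by 0.25, none of which passed.

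**Figure D3:**
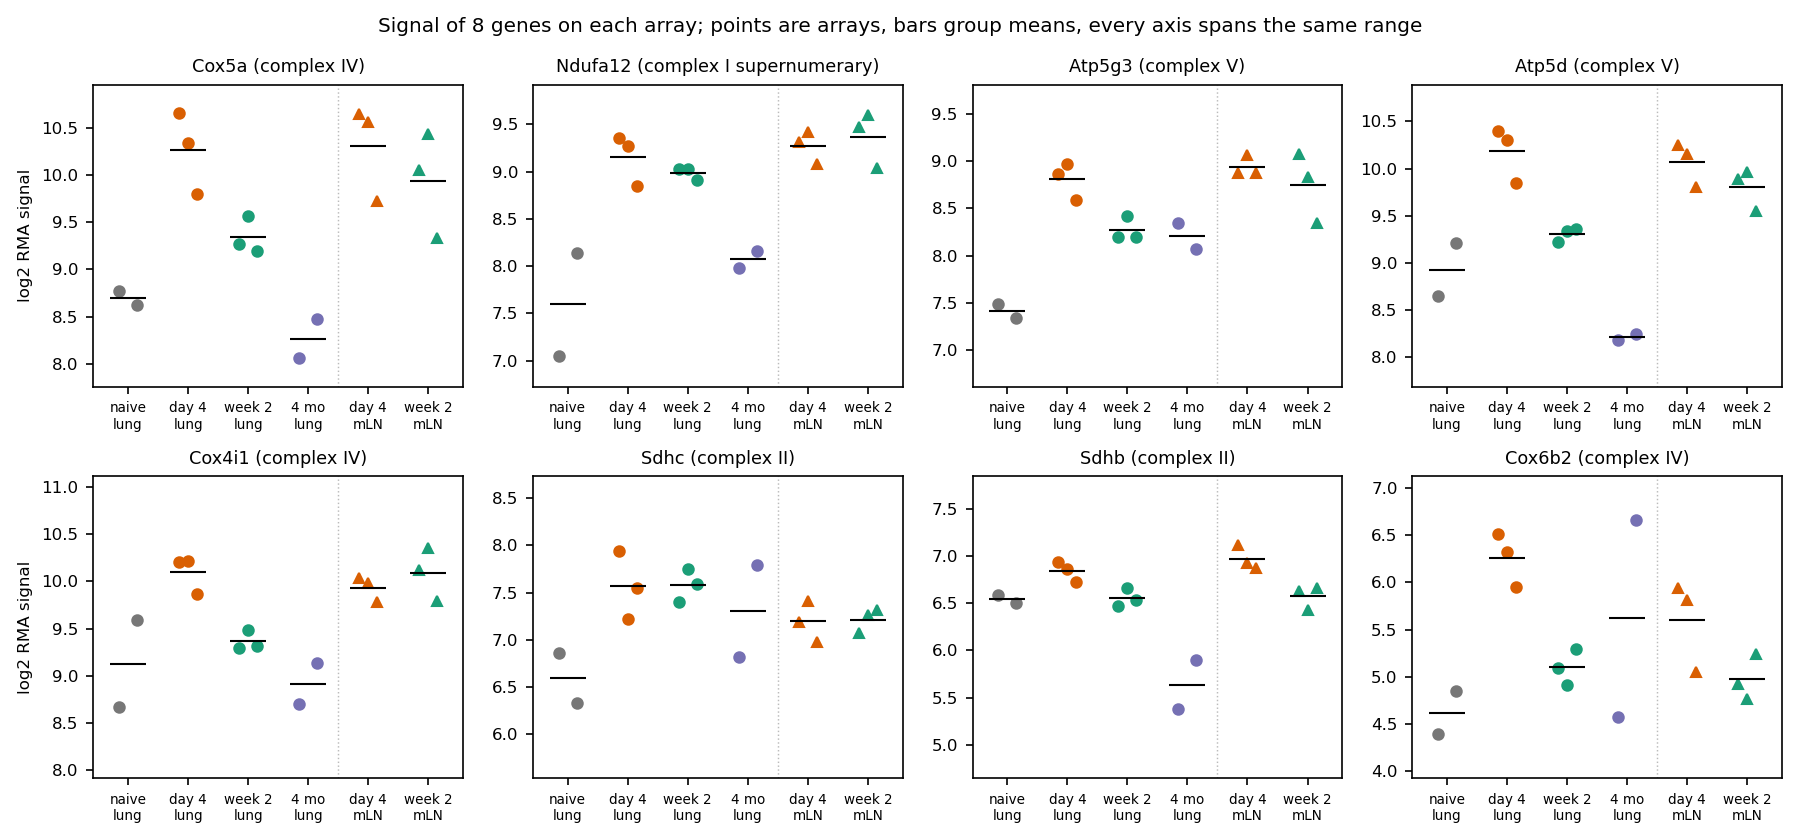
Log2 signal (y) on each array, by group (x), of Cox5a, Ndufa12, Atp5g3, Atp5d, Cox4i1, Sdhc, Sdhb and Cox6b2; points are arrays and bars group means. Cox5a, Atp5g3, Atp5d and Cox6b2 lay higher on every day 4 lung array than on both naive arrays, and Sdhb was lowest on the 4-month arrays.

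Several other measures moved with this comparison. Over all 22180 genes the day 4 minus naive difference correlated with a gene's level in the mLN (Spearman rho 0.517, across genes, which are not independent replicates), so highly expressed genes tended to be higher at day 4. Of the macrophage markers 3 of 11 passed as higher at day 4 (1 with array weights), and of the T cell markers 5 of 9 as lower (4 with array weights; Cd3e had 5.30 to 6.81 on the arrays outside naive lung, against 8.99 and 9.37 in naive lung). Of the 4 epithelial markers 1 passed as higher under the shared spread and 1 with array weights (Cdh1). Another of them, Scgb1a1, had 9.92, 7.97 and 7.58 at day 4, against 4.52 and 5.06 in naive lung. The part of the level, and of the macrophage, T cell and epithelial signal, in the result was not tested. Without the 3 arrays high in macrophage markers, day 4 lung kept 1 array, and the median difference over the 89 genes was 0.25. That array, replicate 3, lay above both naive arrays for 57 of the 89 genes (64%, against 33.6% of all genes). It was also the lowest day 4 lung array for 70 of the 89, against 35.1% of all genes. Without day 4 replicate 1 the count was 15 and without naive replicate 2 it was 19, and 9 of the 29 genes passed whichever single array was left out: Atp5d, Atp5g3, Cox5a, Ndufa12, Ndufaf7, Ndufb10, Ndufb7, Uqcrb and Uqcrfs1.

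**Figure D4:**
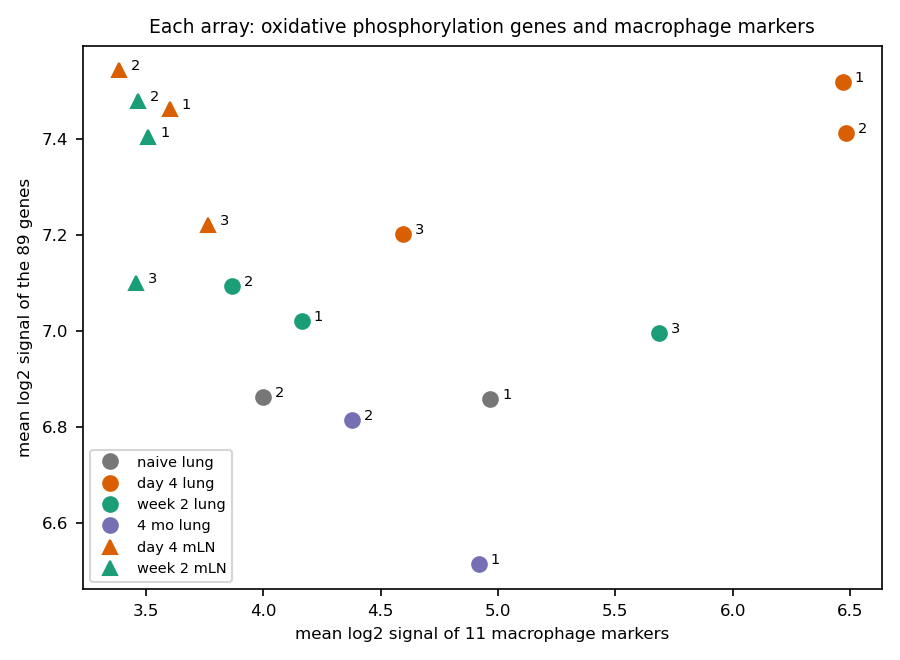
Mean log2 signal of 11 macrophage markers (x) against the mean of the 89 genes (y), with 1 point for each of the 16 arrays, labelled by replicate. Day 4 lung replicates 1 and 2 were high on both axes, and the mLN arrays were low in macrophage markers, with means of the 89 genes of 7.10 to 7.54.

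The subunits encoded in mitochondrial DNA differed little. Of 10 such genes 0 passed in any comparison, and their mean stayed between 11.27 and 11.72 on all arrays. At day 4 their median difference from naive lung was -0.08, in a range of -0.21 to 0.02. Their mean lay above that of the 89 genes on every array, and the part of this high level in the small differences was not tested. Other nuclear genes of the mitochondrion passed beside the 89, all as higher at day 4, where 10.8% of all genes did under the shared spread and 5.91% with array weights. Of 15 other respiratory chain genes 3 passed, and 2 with array weights (Etfa 1.38 and Etfdh 1.07). Of 30 assembly factors of complexes II to IV 7 passed, and 3 with array weights, with Uqcc3 (1.46) the largest. Of 16 tricarboxylic acid cycle genes 3 passed, and 2 with array weights, among them Dld (1.26). Of 14 carriers 5 passed, and 4 with array weights, among them Slc25a4 (1.02). Of 17 biogenesis regulators 3 passed, and 1 with array weights (Ssbp1, 1.47). Of 71 mitochondrial ribosomal protein genes 17 passed, and 9 with array weights. All 4 dividing-cell genes passed as higher in both fits, with a median of 2.91.

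Promoter sequences were read from RefSeq (GRCm38.p6), from 250 bases before to 50 after each start, for 77 promoters of 72 of the genes. Sites were searched on both strands as exact letters: NRF1 as the 10-letter palindrome in capitals in the Uqcrc1 promoter, ETS as CCGGAAG and YY1 as AAGATGGC, the last 2 of which can share the letters AAG, though no promoter here held such an overlap. NRF1 letters stood in 9.09% of these promoters, against 0.971% of all 32851 promoters, ETS in 24.7% against 8.86%, and YY1 in 13% against 2.75%. The promoters were not matched for base content or expression, so these shares do not show an excess particular to oxidative phosphorylation genes. Of the 32 genes with any of the 3, 9 passed as higher at day 4 under the shared spread and 4 with array weights, and of the 40 with none, 14 and 9 did. A few promoters show the range, with the matched letters in capitals. Ndufb7 (chr8:83566508-83566807, plus strand) held ETS letters, Uqcrc1 (chr9:108936398-108936697, plus strand) NRF1 letters and Atp5j (chr16:84834927-84835226, minus strand) both YY1 and ETS letters. Another Atp5j promoter (chr16:84835576-84835875, minus strand), not shown, held none of the 3. Cox5a (chr9:57520982-57521281, plus strand) and Atp5g3 (chr2:73911277-73911576, minus strand), among the genes that rose most, held none of the 3 in this window.
Ndufb7: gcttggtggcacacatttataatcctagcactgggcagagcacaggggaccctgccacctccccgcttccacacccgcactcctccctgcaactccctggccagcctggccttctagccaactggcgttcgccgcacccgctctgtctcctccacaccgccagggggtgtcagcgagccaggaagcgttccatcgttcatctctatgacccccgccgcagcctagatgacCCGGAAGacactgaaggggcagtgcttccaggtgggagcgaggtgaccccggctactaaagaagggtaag
Uqcrc1: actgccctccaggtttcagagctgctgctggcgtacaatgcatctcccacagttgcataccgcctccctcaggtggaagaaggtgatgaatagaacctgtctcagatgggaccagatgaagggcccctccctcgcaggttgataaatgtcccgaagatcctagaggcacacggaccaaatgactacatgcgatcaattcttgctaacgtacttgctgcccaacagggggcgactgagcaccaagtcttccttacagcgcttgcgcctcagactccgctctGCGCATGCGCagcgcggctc
Atp5j: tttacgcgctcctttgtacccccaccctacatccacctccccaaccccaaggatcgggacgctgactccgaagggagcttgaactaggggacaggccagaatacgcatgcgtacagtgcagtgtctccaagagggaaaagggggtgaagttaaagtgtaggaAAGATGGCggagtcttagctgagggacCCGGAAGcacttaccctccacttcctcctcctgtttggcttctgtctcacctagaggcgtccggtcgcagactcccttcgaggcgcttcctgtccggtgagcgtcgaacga
Cox5a: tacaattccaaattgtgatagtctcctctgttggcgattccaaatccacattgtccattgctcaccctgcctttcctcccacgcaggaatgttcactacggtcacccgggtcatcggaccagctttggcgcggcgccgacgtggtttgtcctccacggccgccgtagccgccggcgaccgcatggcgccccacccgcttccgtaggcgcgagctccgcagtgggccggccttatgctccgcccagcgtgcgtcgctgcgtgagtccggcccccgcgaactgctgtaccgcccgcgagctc
Atp5g3: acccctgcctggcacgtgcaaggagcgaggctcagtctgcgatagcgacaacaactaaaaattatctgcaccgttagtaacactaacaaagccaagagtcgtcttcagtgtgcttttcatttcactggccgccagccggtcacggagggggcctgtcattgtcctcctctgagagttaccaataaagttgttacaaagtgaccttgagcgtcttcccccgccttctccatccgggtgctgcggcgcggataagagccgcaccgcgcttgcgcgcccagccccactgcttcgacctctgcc

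Week 2 lung was compared with naive and day 4 lung to ask what remained after the acute phase. Against naive lung, 5 genes passed as higher and 1 as lower at week 2 under the shared spread, where 6.75% and 2.87% of all genes did, and with array weights 1 gene passed, where 2.58% of all genes were higher. The shares of the 89 are 5.62% and 1.12%, near or below the background. The arrays did not overlap for 26 genes that were higher at week 2 (29.2%, against 21.8% of all genes). That gene, Ndufa12, had 9.02, 9.03 and 8.92 at week 2, against 7.05 and 8.14 in naive lung, and rose by 1.39 ± 0.27 (adjusted p = 0.00462, and 0.0164 with array weights). The genes that passed under the shared spread only were Sdhc (0.99), Atp5g3 (0.86), Uqcrb (0.75), Ndufaf2 (0.73) and the pseudogene Atp5c1-ps (-0.89). The week 2 minus naive difference again went with a gene's mLN level over all genes (Spearman rho 0.557).

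Against day 4 lung, most of the differences at week 2 were negative. The median was -0.36, against 0.01 over all genes, 12 of 89 were higher, and the arrays did not overlap for 43 that were lower (48.3%, against 11.9% of all genes). Under the shared spread 1 gene passed as lower and 0 as higher, where 1.39% and 0.419% of all genes did. Of the 89, 31 had an unadjusted limma p under 0.05, against 2601 of all 22180 genes. With array weights 19 passed, all lower, where 4.08% of all genes were. Both groups have 3 arrays of similar spread. The array weights of day 4 lung replicates 1, 2 and 3 were 1.40, 1.75 and 0.835. That fit thus leaned on day 4 replicates 1 and 2, which were high in macrophage markers, and the part of this in the 19 was not tested. Atp5d had 9.22, 9.34 and 9.36 at week 2, against 10.39, 10.30 and 9.85 at day 4. It was the gene that fell in both fits, by 0.88 ± 0.20 (adjusted p = 0.0294). The other 18, chosen after their values were seen, included Cox6b2 (-1.20), Ndufa11 (-1.05), Cox5a (-1.004), Cox5b (-0.85), Cox6b1 (-0.81), Ndufb7 (-0.79), Cox4i1 (-0.78) and Uqcrfs1 (-0.65), and 9 of the 26 supernumerary complex I genes, on the scale of the array-weights fit. Without the 3 arrays high in macrophage markers, day 4 lung keeps 1 array, assumed to vary like the other groups. In that fit the median over the 89 genes was -0.15. All 4 dividing-cell genes were also lower at week 2 in the lung, with a median of -2.12. In the mLN all 4 were lower at week 2 than at day 4 as well, with a median of -3.24. The median over the 89 genes in that mLN comparison was -0.07. At day 4 all 4 were higher in the mLN than in the lung, and the median over the 89 genes there was 0.06. The part of cell division in the lung differences was not tested.

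At 4 months the genes had their lowest group mean. Against week 2 lung, 17 passed as lower and 1 as higher under the shared spread, where 11.5% and 4.85% of all genes did. With array weights 8 passed, all lower, where 4.33% of all genes were. These 8 were Ndufb9, Uqcrc1, Ndufa8, Sdhb, Atp5d, Ndufs7, Sdha and Atp5a1. The arrays did not overlap for 53 genes that were lower at 4 months (59.6%, against 26.7% of all genes). The all-gene difference went against mLN level (Spearman rho -0.635), so highly expressed genes tended to be lower at 4 months, and its part was not tested.

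Ndufb9, a supernumerary complex I subunit, had 6.61 and 6.95 at 4 months, against 7.94, 8.18 and 7.83 at week 2, and fell by 1.20 ± 0.20 (adjusted p = 0.00206, and 0.0165 with array weights). Uqcrc1 had 6.05 and 6.48 at 4 months, against 7.35, 7.51 and 7.13 at week 2, and fell by 1.06 ± 0.18 (adjusted p = 0.00229). For both, every 4-month array was below every week 2 array. Sdhb, the iron-sulfur subunit of succinate dehydrogenase, had 5.38 and 5.89 at 4 months, against 6.47, 6.66 and 6.53 at week 2. It fell by 0.92 ± 0.18 (adjusted p = 0.00502), and its catalytic partner Sdha by 0.95 ± 0.25 (adjusted p = 0.0188). Sdha had 6.62 and 7.71 at 4 months, against 8.18, 8.11 and 8.05 at week 2. Its 4-month arrays lay far apart, and leaving out 1 array at a time gave -1.49 to -0.41, with 2 of 5 passing.

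By complex, 4 of 6 complex I core genes passed as lower under the shared spread (median -0.78), and 1 with array weights. Of the 26 supernumerary genes 4 passed and 2 with array weights, and of the 8 assembly factors 1 and 0. In complex II it was 2 of 4 in both fits, in complex III 2 of 7 and 1, and in complex V 3 of 17 and 2. In complex IV 1 of 19 passed as lower and Cox8b as higher (1.00), and 0 with array weights. Ndufa9 (-1.13), Cox5a (-1.08) and Ndufs8 (-0.94) were among the largest differences that passed under the shared spread only. The 2 arrays of 4 months did not match closely: the count was 5 without 4-month replicate 1 and 30 without replicate 2, and it was 11, 9 and 12 without week 2 replicates 1, 2 and 3. Ndufa8, Ndufb9 and Uqcrc1 passed whichever single array was left out.

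Other mitochondrial genes also passed as lower at 4 months than at week 2, where 11.5% of all genes did under the shared spread and 4.33% with array weights. Of 16 tricarboxylic acid cycle genes 8 passed, and 1 with array weights (Idh3g, -1.16). Of 17 biogenesis regulators 8 passed, and 5 with array weights, with Tfam (-1.58) and Tfb1m (-1.51) the largest. Tfam packages mitochondrial DNA and helps to start its transcription. Of 71 mitochondrial ribosomal protein genes 17 passed, and 4 with array weights. Of 15 other respiratory chain genes 4 passed, of 30 assembly factors of complexes II to IV 5, and of 14 carriers 2, and in each of these lists 1 with array weights. Of the NK cell markers 2 of 5 passed as higher at 4 months (median 0.75) and of the B cell markers 1 of 5 (median 0.55), 0 of either with array weights, and 2 of 4 dividing-cell genes passed as lower in both fits (median -1.04). Of the 4 epithelial markers 1 passed as lower, and 0 with array weights. Scgb1a1, one of them, had 3.77 and 4.33 at 4 months, against 11.02, 10.17 and 6.31 at week 2. The part of these markers and genes in the result was not tested. The 10 mitochondrially encoded subunits had a median difference of 0.11, and 0 passed.

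Against naive lung, 4 genes passed as lower at 4 months under the shared spread and 0 as higher, where 1.25% and 0.717% of all genes did. With array weights 0 passed, and 0.018% of all genes did. The 4 were Ndufb9 (-1.28), Ndufa8 (-1.13), Sdhb (-0.91) and Uqcrc1 (-0.88). Of the 89, 23 had an unadjusted limma p under 0.05, against 3773 of all 22180 genes. Ndufa8 had 7.23 and 7.43 at 4 months, against 8.51 and 8.42 in naive lung. Fitting these groups alone also gave 0. The arrays did not overlap for 32 genes that were lower at 4 months (36%, against 18.6% of all genes). The counts were 7 without 4-month replicate 2 and 9 without naive replicate 1 under the shared spread. Week 2 and 4-month differences from naive lung share their naive arrays.

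In the mLN, between week 2 and day 4, 0 passed in limma in either fit, where 1.71% of all genes passed under the shared spread and 2.84% with array weights. The median was -0.07, and 5 of the 89 had an unadjusted p under 0.05, against 2006 of all 22180 genes. At day 4, mLN and lung did not differ beyond the threshold, with 0 genes passing in either limma fit, where 2.33% of all genes passed under the shared spread and 4.23% with array weights. Here 3 of the 89 had an unadjusted p under 0.05, against 2320 of all 22180 genes, and the median was 0.06. At week 2 the median mLN minus lung difference was 0.31, against -0.01 over all genes, and 78 of 89 were positive. There 0 passed under the shared spread, where 0.78% of all genes did, and 22 had an unadjusted p under 0.05, against 2119 of all 22180 genes. With array weights 9 passed, all higher in the mLN, where 1.7% of all genes were. The weights of week 2 mLN replicates 1, 2 and 3 were 1.33, 1.62 and 0.681 in that fit. Replicate 3, whose mean of the 89 genes lay close to week 2 lung, thus counted least of them.

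Those 9 were Ndufa3, Cox4i1, Atp5h, Ndufb8, Ndufb10, Ndufv3, Ndufaf6, Cox7a2l and Ndufa10. Cox4i1 had 10.12, 10.36 and 9.79 in week 2 mLN, against 9.30, 9.49 and 9.32 in week 2 lung, a difference of 0.72 ± 0.22 (adjusted p = 0.211, and 0.0111 with array weights). Ndufa3 had 10.16, 10.18 and 9.42 in the mLN, against 9.17, 9.14 and 9.06 in the lung. In both genes the third mLN array was the lowest of its group, as it was for 65 of the 89 (35.5% of all genes), and mLN replicates 1, 2 and 3 lay above all 3 lung arrays for 68, 70 and 33 genes (76.4, 78.7 and 37.1%, against 29.7, 29.1 and 32.4% of all genes). The arrays did not overlap for 28 genes that were higher in the mLN (31.5%, against 9.97% of all genes).

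Whether the week 2 minus day 4 difference itself differed between the tissues was tested as an interaction. None of the 89 passed in limma, 0 with array weights, where 0.18% of all genes passed under the shared spread and 0.924% with array weights. Of the 89, 6 had an unadjusted p under 0.05, against 1414 of all 22180 genes. The median was 0.29, and 0.03 without the 3 arrays high in macrophage markers. Cox7a2l (0.71, adjusted p = 0.352) and Cox4i1 (0.89, adjusted p = 0.514) had the smallest p. Of the 89 genes 51 were lower at week 2 in both tissues and 26 were lower in the lung and higher in the mLN.

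**Figure D5:**
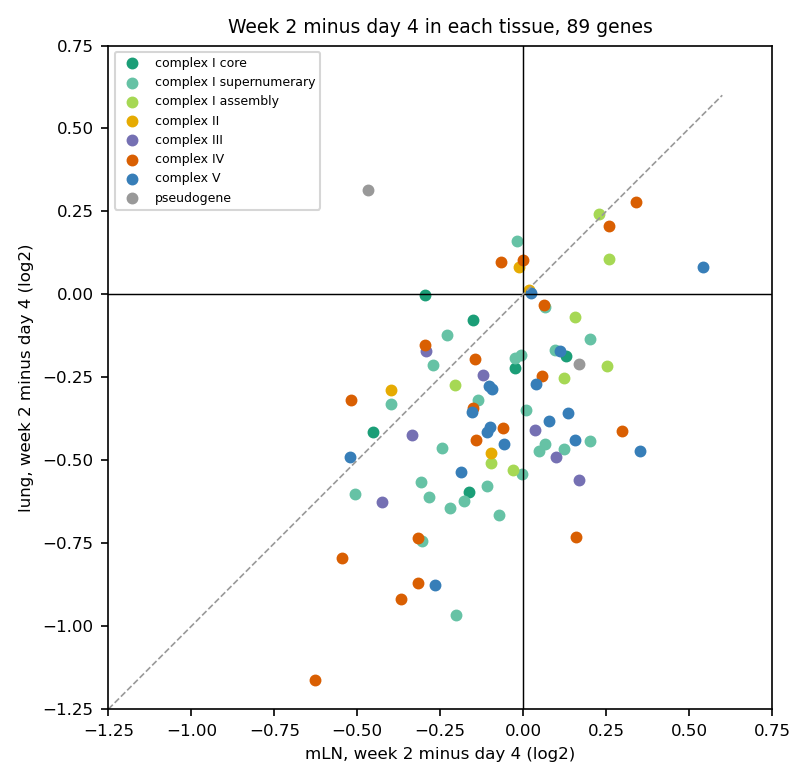
Week 2 minus day 4 difference in log2 signal in the mLN (x) and the lung (y) for each of the 89 genes, coloured by complex, with a dashed line of equal differences. Most genes lay below 0 in the lung, and in the mLN they lay on both sides of 0.

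Over the 6 group means, the genes whose profile was most like the mean of the 89 were Cox5a (Pearson r 0.995), Ndufa6 (0.992), Atp5a1 (0.988), Atp5d (0.987) and Atp5mpl (0.982), all of which enter that mean. Among other genes they were Rpl6l (0.998), Sh3gl2, Tmem234, Tmem179b and Rpl15-ps6, out of all genes searched. Cox6a2 (-0.904), Ndufs5 (-0.811) and Cox4i2 (-0.711) ran opposite to it. Their means over all arrays were 5.05, 4.07 and 4.89, below the mean of the 89 genes on every array. None of them passed in any comparison under the shared spread, and the part of their level was not tested. Second probe sets did not always match: for Cox7b the set used differed by 0.92 between day 4 and naive lung and the other by -0.51, and for Atp5h the set used differed by -0.01 between week 2 and naive lung and the other by 1.23.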

How the data were processed

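Total RNA of isolated ILC2s was measured on 16 one-colour arrays, extracted with Trizol and labelled with a Nugen Encore kit, per the labels' protocols. The values the authors deposited are on a log2 scale, 1 for each probe set and array. The submitters' processing notes name RMA and Affymetrix Expression Console, with no version. Of 41345 probe sets, 23521 have 1 gene symbol, 1814 several and 16010 none, and only the first were named. The symbols Uqcr10, Ndufs6, Cox6c, Ndufb2 and Ndufb4 stand only on probe sets with several and were not used.

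Groups came from the sample titles. All 16 arrays were fitted with 1 mean per group in limma 3.58.1 (R 4.3.3), 9 comparisons, with Benjamini-Hochberg adjustment over 22180 genes and a threshold of 0.05, two-sided, with 1 spread for all groups. Tested on simulated data with each group's own spread, this fit made far more false calls than its threshold allows where naive or 4-month lung entered, and limma with array weights stayed near it. Genes were drawn independently there, so deviations that many genes of an array share were absent. How either fit behaves with such deviations was not tested. The shared spread had been chosen as the design and was kept, with the array-weights result given beside it. The number of arrays limits the precision.

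The members and lists were chosen with earlier results of these data known. Genes named by rule are, per comparison, the 8 largest called changes each way without overlap, the largest called per complex, and fixed catalytic subunits and isoform families. Other members named, among them those called only with array weights, were picked later, and not all are marked so. Alternatives were array weights, centred array medians, only the groups compared, repeated quantile normalization, a dim filter at the 40th percentile, trend and robust options, averaged probe sets, a block for replicate number, leaving out each array and leaving out the 3 arrays high in macrophage markers. Plots used matplotlib 3.10.9 (Python 3.11.15).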

Additional observations from a re-analysis of the deposited data

How the results depend on the processing

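Naive and 4-month lung varied more than the shared spread assumes. For the shared spread and for array weights, the shares of all genes that passed are given above. For the other alternatives no such shares are given, here or above. Those counts alone therefore do not show whether oxidative phosphorylation genes passed more often than other genes. With array weights the counts of genes passing were 17 (day 4 against naive lung), 1 (week 2 against naive), 0 (4 months against naive), 19 (week 2 against day 4 lung), 8 (4 months against week 2) and 9 (week 2 mLN against lung), against 29, 6, 4, 1, 18 and 0. Fitting only the groups compared gave 11 for day 4 against naive, 0 for week 2 against naive, 0 for 4 months against naive and 5 for week 2 against day 4 lung. Repeated quantile normalization gave 15 for day 4 against naive (median 0.33), 1 for week 2 against naive and 6 for 4 months against week 2 (median -0.21). For week 2 against day 4 lung the dim filter gave 2, the trend and robust options 2 and the mean of probe sets 0.

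Without the 3 arrays high in macrophage markers day 4 lung kept 1 array, so only medians are given where it enters. They were 0.25 for day 4 against naive, -0.15 for week 2 against day 4 lung, 0.25 for day 4 mLN against lung and 0.03 for the interaction. The counts were 1 for week 2 against naive and 7 for 4 months against week 2. Leaving out 1 array at a time gave 15 to 27 for day 4 against naive, 1 to 9 for week 2 against naive, 3 to 9 for 4 months against naive, 0 to 2 for week 2 against day 4 lung, 5 to 30 for 4 months against week 2, 0 to 1 for day 4 mLN against lung and 0 to 1 for week 2 mLN against lung. Without 4-month replicate 2 the medians were -0.37 against naive and -0.57 against week 2.

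Same-numbered replicates did not pair (correlations of deviations -0.104 to 0.184 between the groups of 3). With the replicate number as a block the counts were 3 for week 2 against day 4 lung and 28 for 4 months against week 2, 38 for day 4 against naive, 8 for week 2 against naive and 4 for 4 months against naive. No call under the shared spread turned its direction under these alternatives, and differences that had not passed did so in places (Cox6b2, 4 months against naive, 0.9998, and -0.04 without 4-month replicate 2). The causes were not tested.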
